A study of Mus musculus with 24 samples.

Results

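Transcripts of 10 genes that control the G1 phase of the cell cycle were examined in mouse lymphoid progenitors (LPs) in which *Cbfb*, *Ctcf* or *Med12* was targeted with CRISPR/Cas9. They are the D-type cyclins *Ccnd1*, *Ccnd2* and *Ccnd3*, the E-type cyclin *Ccne1*, the kinases *Cdk4* and *Cdk6*, and the inhibitors *Cdkn1b*, *Cdkn2a*, *Cdkn2c* and *Cdkn2d*. They were taken by their symbols from both deposited tables, which list 55487 genes, and each of the 10 had a row in both. All 10 also passed the filter used for testing, at least 1 CPM (1 read in 1000000 reads on genes) in at least 3 libraries of an experiment. *Ccnd1* passed it in the first experiment only through the Phase 1 cells. In the second it passed only through the cells with *Ctcf* or *Med12* targeted.

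D-type cyclins rise in response to growth and differentiation signals and switch on CDK4 and CDK6, which phosphorylate the retinoblastoma protein and so release E2F factors. Cyclin E with CDK2 then carries the cell into S phase. The INK4 proteins encoded by *Cdkn2a*, *Cdkn2c* and *Cdkn2d* bind CDK4 and CDK6 and keep D-type cyclins from activating them, whereas p27 (*Cdkn1b*) acts mainly on cyclin E-CDK2. In early T cell progenitors, cyclin D3 and CDK6 are known to serve the expansion that Notch signaling drives.

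All 24 libraries came from Cas9-LP cells, grown as lines from fetal liver progenitors of mice that lack functional *Ebf1*, a B cell determinant, and carry Cas9 at Rosa26. Every group shared this background, the cytokines SCF, Flt3L and IL-7, and a retrovirus that carried the sgRNA and the surface marker hNGFR. The sgControl virus targeted luciferase, and each other virus was a pool of sgRNAs to 1 gene. hNGFR+ CD45+ cells were sorted 5 days after transduction. Experiment 1 held LPs and Phase 1 cells, each with sgControl or sgCbfb. LPs were grown on a feeder layer of OP9 stromal cells. Phase 1 cells are LPs stimulated with the Notch ligand DLL4 on another feeder line, OP9-DLL4. Stage and feeder line changed together and cannot be told apart. Experiment 2 held LPs with sgControl, sgCbfb, sgCTCF or sgMed12. Each of the 8 groups had 3 libraries. The study calls them biologically independent, and the labels do not say whether they came from separate cultures. How many lines were used was not given in the sources used here, and P values measure the spread between these libraries. CBFβ is the partner that RUNX factors need for firm DNA binding, CTCF organizes chromatin loops, and Med12 belongs to the kinase module of Mediator.

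The libraries had 1363263 to 1743319 reads on genes in experiment 1 and 3354483 to 4326782 in experiment 2, so that 0 reads in a library allow up to 2.20 and 0.894 CPM. These limits cover counting error only. The 6 progenitor markers *Ptprc*, *Flt3*, *Il7r*, *Kit*, *Cd34* and *Cd93* were read in every group, with sums of 1166 to 2393 CPM per library, and *Cd79a*, a B cell gene, was at 0 in all libraries. The sum of 8 Notch-induced T lineage genes was 38.4 to 56.1 CPM in sgControl LPs and 841 to 1016 CPM in sgControl Phase 1 cells of experiment 1, and 323 to 349 CPM in sgCbfb Phase 1 cells. *Ebf1* itself still gave 143 to 403 CPM, and 3′ reads do not show whether its deleted part was present. *Cbfb* mRNA was lower with sgCbfb in LPs of both experiments (86.5 to 40.2 and 114 to 48.4 CPM), but not detectably in Phase 1 cells (66.5 to 53.9 CPM; limma, adjusted P = 0.59). *Ctcf* fell from 391 to 306 CPM with sgCTCF. *Med12* had 4.38 to 6.59 CPM with sgControl and 3.20 to 9.61 CPM with sgMed12, so its mRNA does not check that label. At the protein level, the study reported loss of CBFβ by immunoblot in Cas9-LPs given sgCbfb, and also blotted CTCF and Med12. Those blots were made on an earlier day than the sort. The 2 libraries that stood apart from their groups were Phase 1 sgControl replicate 3 and sgMed12 replicate 2. On the second principal component of experiment 2, sgMed12 replicate 2 lay at -1.80, near the sgControl libraries (-0.29 to 2.43) and far from sgMed12 replicates 1 and 3 (-25.2 and -17.6). Mitochondrial transcripts took 6.76% to 8.44% of the reads of experiment 2, except in sgMed12 replicates 1 (13.7%) and 3 (11.2%).

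Differences were tested with limma on log2(CPM + 1) within each experiment, with Benjamini-Hochberg adjustment over 13239 and 13177 genes. A member was counted as changed at an adjusted P value under 0.05, and the share of all tested genes that met the same criterion is given beside each count. In LPs of experiment 1, sgCbfb lowered 1 of the 10 members (*Ccnd2*) and raised none, where 1.09% of all genes were lower and 1.76% higher. In Phase 1 cells, it lowered 1 (*Ccnd2*) and raised 1 (*Cdkn2a*), where 2.6% of all genes were lower and 3.37% higher. In LPs of experiment 2, it lowered 2 (*Ccnd2* and *Cdkn2d*) and raised 1 (*Cdkn2a*), where 5.57% and 6.91% of all genes were lower and higher. sgCTCF lowered 1 (*Cdk6*) and raised 1 (*Ccnd1*), where 4.2% and 6.13% of all genes were lower and higher. *Ccnd1* had passed the filter there only through the sgCTCF and sgMed12 libraries where it is high, so that call is not read against the share. sgMed12 lowered 1 (*Cdkn2d*) and raised none, where 4.7% and 2.53% were lower and higher. Notch stimulation raised 3 of 10 in sgControl cells (*Ccnd1*, *Ccnd2* and *Cdk6*) and lowered none, where 3.26% and 3.23% of all genes were higher and lower. Of these 3, *Ccnd1* had passed the filter only through the Phase 1 libraries where it is high, so its call is not read against that share. In sgCbfb cells it raised 1 (*Ccnd2*), where 1.28% of all genes were higher and 0.959% lower. With 10 members, 1 gene is already 10.0% of them, so these shares describe the members and were not tested against the background. The median log2 difference of the 10 members lay between -0.32 (sgMed12) and 0.50 (Notch stimulation of sgCbfb cells) over these 7 comparisons, beside -0.07 to 0.06 for all genes tested.

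**Figure D1:**
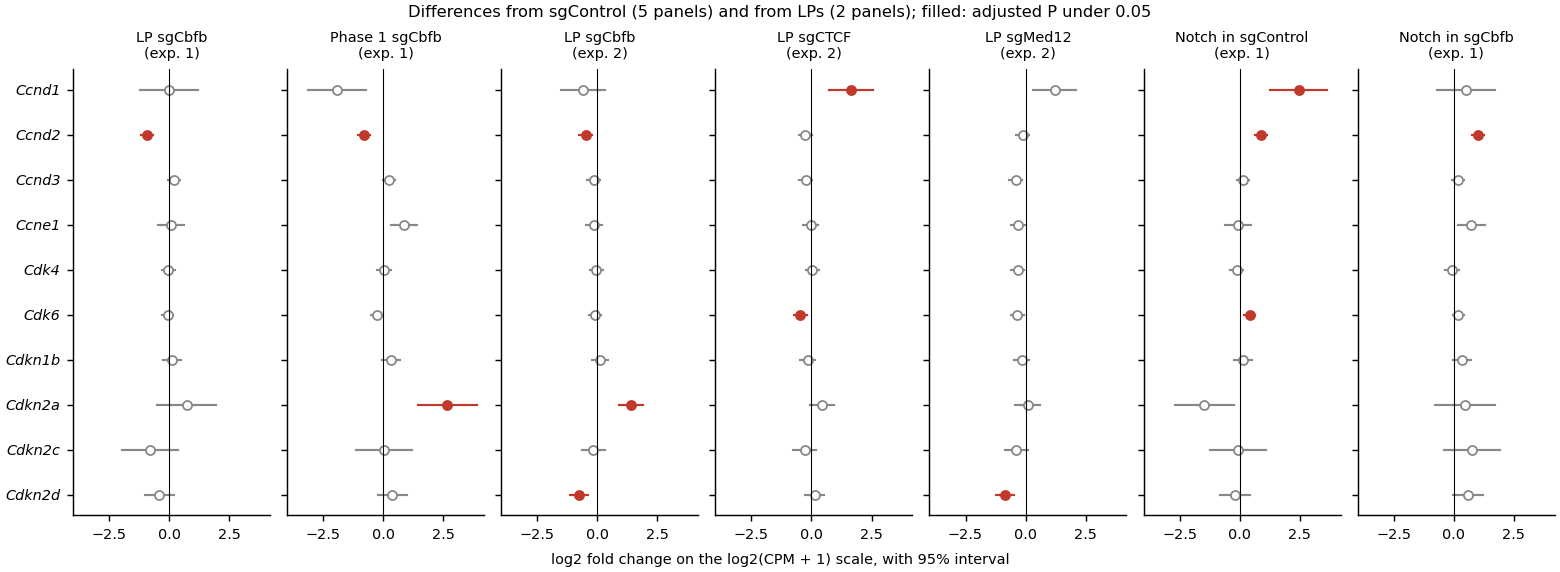
Log2 fold change on the log2(CPM + 1) scale (x axis) of each of the 10 genes (rows) in 7 comparisons, 5 of a targeting sgRNA with sgControl and 2 of Phase 1 cells with LPs. Points are limma estimates with 95% intervals, and filled red points had an adjusted P value under 0.05. *Ccnd2* is left of 0 and filled in the 3 sgCbfb panels and right of 0 in both Notch panels.

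*Ccnd2* encodes cyclin D2. In LPs of experiment 1 it had 482, 542 and 588 CPM with sgControl and 236, 291 and 318 CPM with sgCbfb. The lowest sgControl library was above the highest sgCbfb library, and the mean was 1.91-fold lower with sgCbfb (537 ± 53.5 against 282 ± 41.9 CPM, SD, n = 3). The log2 fold change was -0.94 (standard error 0.12, limma adjusted P = 3.8e-05). In Phase 1 cells the 3 libraries had 1037, 908 and 1045 CPM with sgControl and 605, 557 and 529 CPM with sgCbfb. Again the groups did not overlap, with a log2 fold change of -0.82 (standard error 0.12, limma adjusted P = 0.00011). *Ccnd2* is ENSMUSG00000000184, chromosome 6, 127125162 to 127152193, minus strand (GRCm38, as are all gene positions here).

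Notch stimulation raised *Ccnd2* in both sgControl and sgCbfb cells. The mean rose from 537 ± 53.5 to 996 ± 76.9 CPM in sgControl cells and, in sgCbfb cells, from 282 ± 41.9 to 564 ± 38.3 CPM (SD, n = 3). The log2 fold changes were 0.89 (limma adjusted P = 3e-05) and 1.01 (limma adjusted P = 2e-05), both with a standard error of 0.12. The difference between them was 0.12 (95% interval -0.24 to 0.47, limma adjusted P = 0.88), so a difference in the Notch response of *Ccnd2* was not detected. In the order of levels, sgControl Phase 1 cells were highest and sgCbfb LPs lowest. Between them, sgCbfb Phase 1 cells (529 to 605 CPM) and sgControl LPs (482 to 588 CPM) overlapped.

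In experiment 2 the fall of *Ccnd2* with sgCbfb was smaller. The sgControl libraries had 752, 585 and 824 CPM and the sgCbfb libraries 659, 396 and 497 CPM, so replicate 1 of sgCbfb was above replicate 2 of sgControl. The log2 fold change was -0.49 (standard error 0.14, limma adjusted P = 0.015), and leaving out sgControl replicate 1 or 3 or sgCbfb replicate 2 or 3 took the adjusted P value to 0.057 to 0.18. It was 0.07 without the filter on low values and 0.054 with only these 2 groups in the fit. With sgCTCF the libraries had 580, 633 and 581 CPM, and with sgMed12 625, 662 and 675 CPM. Neither differed detectably from sgControl, with log2 fold changes of -0.26 (95% interval -0.54 to 0.03) and -0.13 (-0.41 to 0.16). In this experiment the groups next to each other in the order sgControl, sgMed12, sgCTCF and sgCbfb all overlapped. The difference of sgCTCF from sgCbfb was 0.24 (-0.04 to 0.52) and that of sgMed12 from sgCbfb 0.37 (0.09 to 0.65, limma adjusted P = 0.065).

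**Figure D2:**
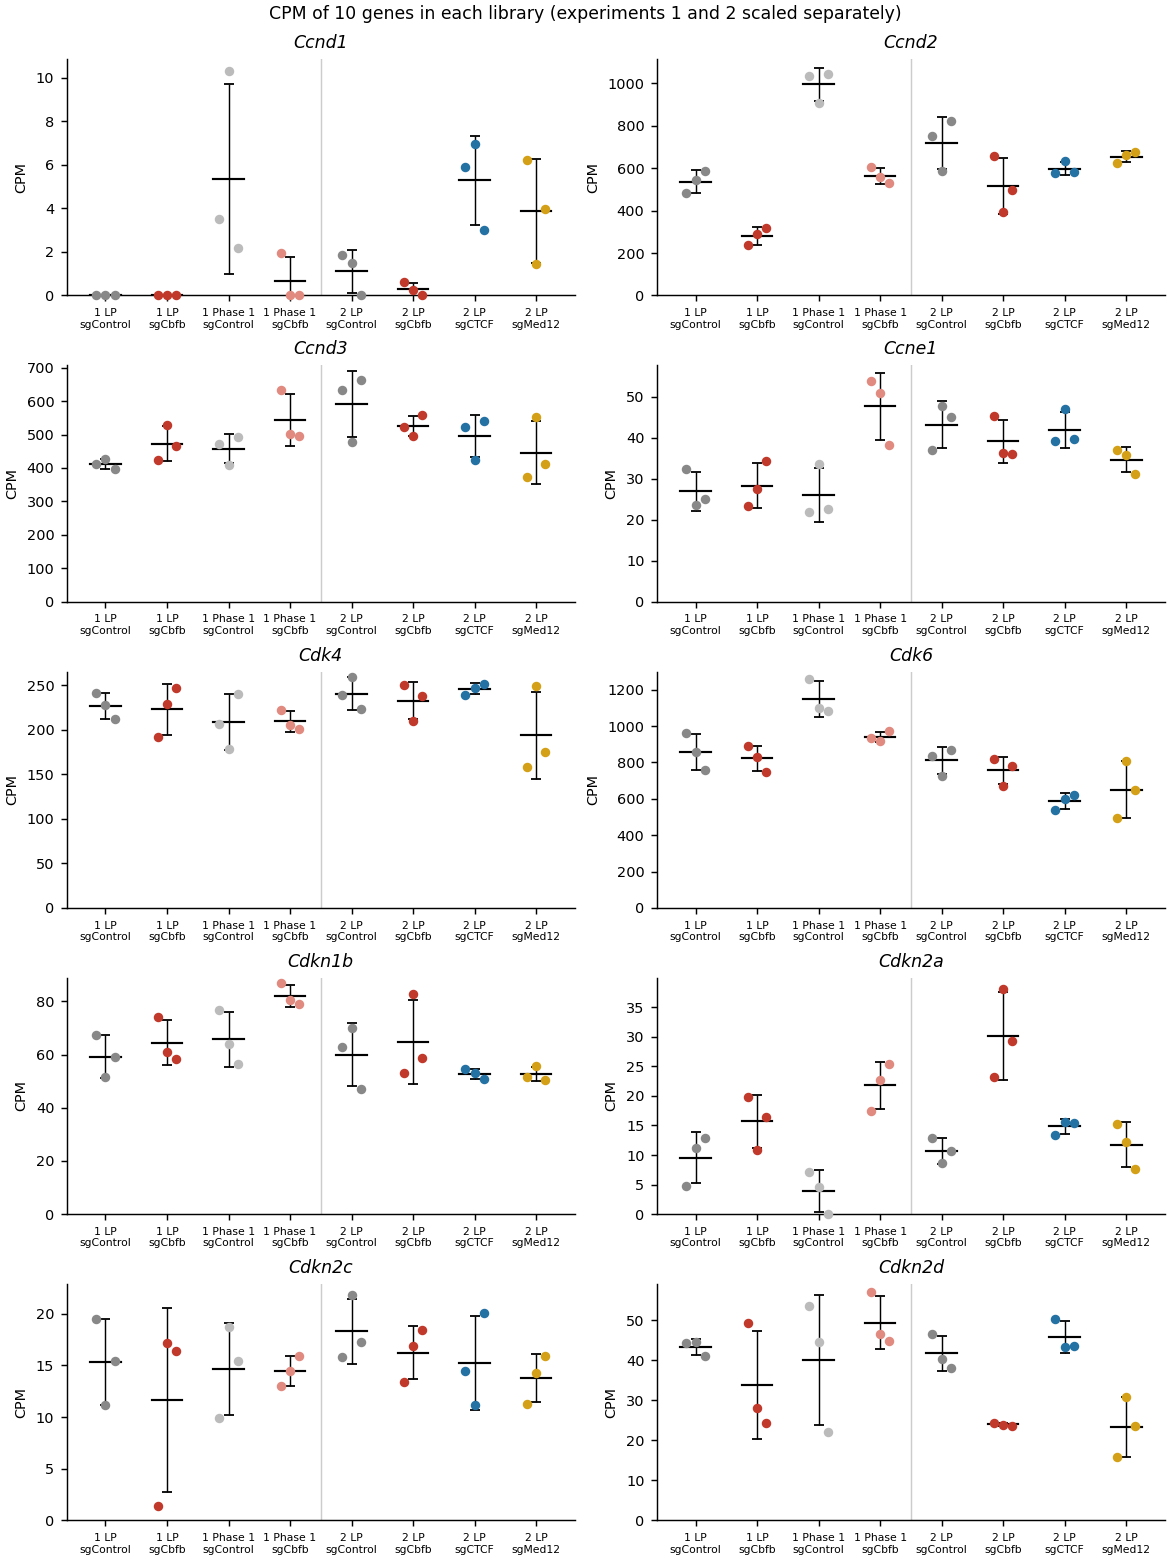
CPM of each of the 10 genes (y axis, from 0) in each library of the 8 groups, with experiment 1 left and experiment 2 right of the grey line. Points are libraries, long horizontal lines are means and bars are SDs (n = 3). For *Ccnd2*, the sgCbfb libraries of experiment 1 lie below the sgControl libraries of the same stage, and for *Cdkn2d* the sgCbfb libraries of experiment 2 lie between 23.7 and 24.4 CPM.

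*Ccnd1*, which encodes cyclin D1, was at or near 0 in LPs. None of the 6 LP libraries of experiment 1 had a read. The Phase 1 sgControl libraries had 5, 16 and 3 reads (3.53, 10.3 and 2.20 CPM), and the Phase 1 sgCbfb libraries 3, 0 and 0. Over the group, the Phase 1 sgControl level was 5.54 CPM (95% counting interval 3.55 to 8.25), and sgControl LPs allowed up to 0.758 CPM. The estimate of 5.54 CPM was 8.99 times the LP floor, taken as 3 reads over the group, which is not a lower limit of the fold. The limma adjusted P value was 0.01. As *Ccnd1* passed the filter only through Phase 1 sgControl cells, it had to differ. The adjusted P value was 0.059 without Phase 1 sgControl replicate 2, which holds 16 of the 24 reads, and 0.057 with only these 2 groups in the fit. Between Phase 1 sgCbfb and sgControl cells the log2 fold change was -1.93 (limma adjusted P = 0.051). In 4 of 8 other settings the adjusted P value was 0.033 to 0.049. Here too *Ccnd1* passed the filter only through the Phase 1 sgControl libraries, where it is high, so these values do not count as support.

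In experiment 2, *Ccnd1* had 7, 5 and 0 reads with sgControl, 2, 1 and 0 with sgCbfb, 22, 25 and 13 with sgCTCF and 22, 5 and 14 with sgMed12. All 3 sgCTCF libraries (3.00 to 6.96 CPM) were above the sgControl libraries (0 to 1.85 CPM), with a log2 fold change of 1.65 (standard error 0.44, limma adjusted P = 0.015). For sgMed12 it was 1.21 (limma adjusted P = 0.09), and both sgCTCF and sgMed12 were above sgCbfb (limma adjusted P = 0.00038 and 0.0047). In experiment 2 *Ccnd1* passed the filter only through the sgCTCF and sgMed12 libraries, where it is high, so these calls do not count as support. The sgCTCF difference from sgControl had an adjusted P value of 0.06 with a pseudocount of 0.1, of 0.066 without the filter and of 0.07 to 0.13 without sgCTCF replicate 1 or 2 or sgControl replicate 3.

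Markers of the OP9 feeder cells, which the CD45 gate should remove, were read beside *Ccnd1*. The sum of 10 stromal markers (among them *Col1a2*, *Fn1* and *Sparc*) in replicates 1, 2 and 3 was 29.5, 3.84 and 0.487 CPM with sgControl, 23.8, 10.2 and 2.27 CPM with sgCbfb, 32.7, 28.4 and 14.6 CPM with sgCTCF, and 41.3, 5.81 and 19.6 CPM with sgMed12. In 3 of these groups the libraries had the same order by *Ccnd1* as by this sum, and in the sgCTCF group the library with the lowest sum also had the lowest *Ccnd1*. Of the 10 markers, *Col3a1*, *Dcn* and *Postn* were at 0 in all 12 libraries of experiment 2. The part of stromal RNA in the *Ccnd1* values of experiment 2 was not tested. In the Phase 1 sgControl libraries of experiment 1 the sum was 0, 0 and 0.733 CPM, with 9 of the 10 markers at 0, while *Ccnd1* had 2.20 to 10.3 CPM.

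The exons of *Ccnd1* (ENSMUSG00000070348, chromosome 7, 144929931 to 144939925, minus strand) also share 1100 bases with *LTO1* on the other strand, and the strand setting of the counting was not given in the sources used here. *LTO1* had group means of 7.36 to 10.2 CPM in experiment 1 and 6.86 to 10.3 CPM in experiment 2.

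**Figure D3:**
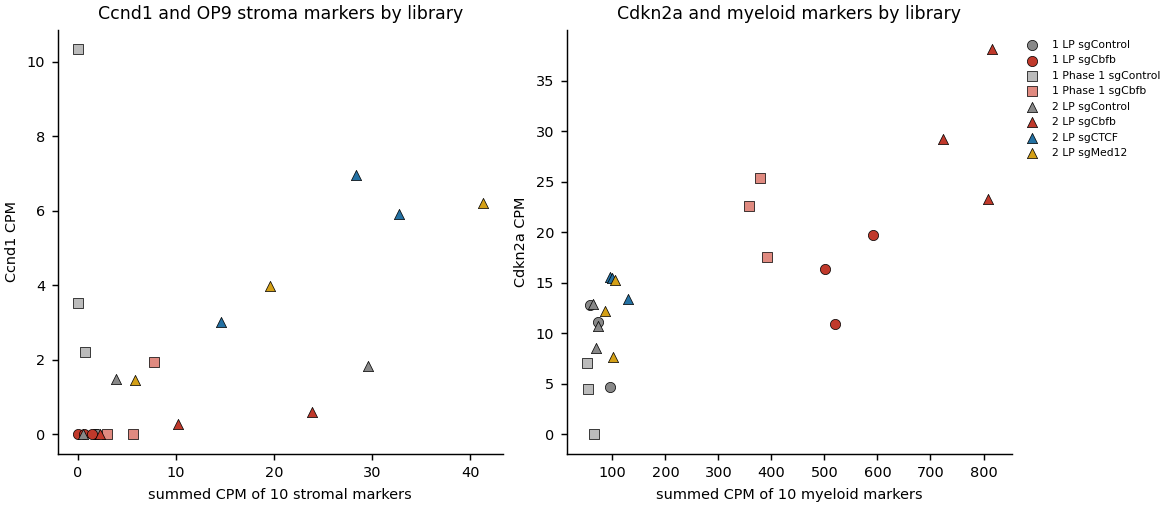
Left, *Ccnd1* CPM (y axis) against the summed CPM of 10 stromal markers (x axis), and right, *Cdkn2a* CPM against the summed CPM of 10 myeloid markers, 1 point per library (circles, LPs and squares, Phase 1 cells of experiment 1; triangles, experiment 2; colors, sgRNA). Phase 1 sgControl libraries have *Ccnd1* with a stromal sum of 0 to 0.733 CPM, and all sgCbfb libraries have a myeloid sum of 357 CPM or more.

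*Ccnd3*, for cyclin D3 (ENSMUSG00000034165, chromosome 17, 47505051 to 47599691, plus strand), passed the test in none of the comparisons. Its group means were 412 to 544 CPM in experiment 1 and 445 to 591 CPM in experiment 2. The largest difference in limma from sgControl was with sgMed12 (373, 551 and 412 CPM against 633, 478 and 662 CPM), at -0.41 on the log2 scale (limma adjusted P = 0.058), where the groups overlapped. The adjusted P value was 0.037 without sgControl replicate 2. Its exons share 361 bases with *Bysl* on the other strand, which had at most 54.3 CPM.

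*Ccne1*, for cyclin E1 (ENSMUSG00000002068, chromosome 7, 38097984 to 38107534, minus strand), had 21.9, 33.5 and 22.7 CPM in sgControl and 53.8, 50.9 and 38.3 CPM in sgCbfb Phase 1 cells. These groups did not overlap, but the difference missed the threshold (log2 fold change 0.86, 95% interval 0.31 to 1.41, limma adjusted P = 0.06), and the adjusted P value was 0.032 without Phase 1 sgControl replicate 2. The LP means were 27.0 ± 4.78 CPM (sgControl) and 28.4 ± 5.53 CPM (sgCbfb, SD, n = 3). The interaction of stage and sgCbfb for *Ccne1* was 0.79 (0.02 to 1.57, limma adjusted P = 0.47). All group means of experiment 2 lay between 34.7 and 43.3 CPM.

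*Cdk6* encodes the kinase partner of D-type cyclins that is abundant in blood progenitors (ENSMUSG00000040274, chromosome 5, 3341485 to 3531008, plus strand). Notch stimulation raised it in sgControl cells, from 959, 856 and 760 CPM to 1261, 1099 and 1080 CPM, without overlap (log2 fold change 0.42, standard error 0.11, limma adjusted P = 0.018). In sgCbfb cells the libraries were at 888, 829 and 749 CPM before and 935, 916 and 971 CPM after stimulation, also without overlap, at a log2 fold change of 0.20 (95% interval -0.03 to 0.42, limma adjusted P = 0.5). The difference between these responses was -0.22 (-0.54 to 0.09, limma adjusted P = 0.66) and so was not detected. The call in sgControl cells was lost without LP replicate 2 or 3 or Phase 1 replicate 1 (adjusted P = 0.068 to 0.11), and with only these 2 groups in the fit (0.13).

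sgCTCF lowered *Cdk6*. The sgCTCF libraries had 540, 600 and 623 CPM, below 838, 725 and 870 CPM with sgControl, with a log2 fold change of -0.46 (standard error 0.13, limma adjusted P = 0.021). They were also below the sgCbfb libraries (817, 671 and 781 CPM; log2 fold change -0.36, limma adjusted P = 0.047), a call that held in 4 of 9 other settings. With the replicate number as a block, which pairs these groups, the call was lost (adjusted P = 0.05). It was also lost (adjusted P = 0.056 to 0.19) without sgControl replicate 1 or 3, sgCbfb replicate 1 or 3, sgMed12 replicate 3 or any 1 of the sgCTCF libraries. With sgMed12 the libraries spread from 494 to 806 CPM. Leaving out sgControl replicate 1 or 3 or sgCTCF replicate 1 or 2 took the adjusted P value of the sgCTCF difference from sgControl to 0.065 to 0.12, and testing without the filter took it to 0.086.

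*Cdk4*, the other kinase partner (ENSMUSG00000006728, chromosome 10, 127063534 to 127067920, plus strand), had group means of 208 to 227 CPM in experiment 1 and 194 to 246 CPM in experiment 2, and differed from sgControl past the test with none of the 3 sgRNA pools. The sgMed12 libraries had 158, 250 and 175 CPM beside 239, 247 and 251.2 CPM with sgCTCF, a log2 fold change of -0.37 (limma adjusted P = 0.042), and edgeR gave this difference an adjusted P value of 0.068. The call held in 4 of 9 other settings and was lost (adjusted P = 0.054 to 0.22) without sgControl replicate 1, sgCbfb replicate 3, sgMed12 replicate 1 or 3 or any 1 of the sgCTCF libraries. Its exons share 641 bases with *Tspan31* on the other strand, which had at most 37.3 CPM.

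*Cdkn2a* was the only one of the 4 inhibitors that rose past the test against sgControl. It encodes p16INK4a and, from another first exon and reading frame, ARF, which acts on MDM2 and p53. In Phase 1 cells of experiment 1 it had 7.06, 4.52 and 0 CPM with sgControl (10, 7 and 0 reads) and 17.5, 22.6 and 25.3 CPM with sgCbfb (27, 36 and 43 reads). The groups did not overlap, and the ratio of the means was 5.66 (log2 fold change 2.67, standard error 0.59, limma adjusted P = 0.0065). Without Phase 1 sgControl replicate 3, the library at 0 reads that stood apart, the log2 fold change was 1.76 (limma adjusted P = 0.013). With only these 2 groups in the fit the adjusted P value was 0.1.

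In LPs, *Cdkn2a* rose with sgCbfb in experiment 2 and not detectably in experiment 1. In experiment 2 it had 12.9, 8.56 and 10.7 CPM with sgControl and 23.3, 38.1 and 29.2 CPM with sgCbfb, a 2.81-fold higher mean (log2 fold change 1.40, standard error 0.25, limma adjusted P = 0.00019). In LPs of experiment 1 it had 4.72, 11.1 and 12.8 CPM with sgControl and 19.7, 10.9 and 16.4 CPM with sgCbfb, where 1 library overlapped (log2 fold change 0.72, 95% interval -0.51 to 1.95, limma adjusted P = 0.75). The interaction of stage and sgCbfb was 1.95 (0.21 to 3.70, limma adjusted P = 0.4), so the effect was not shown to differ between stages. The sgCTCF libraries had 13.4, 15.6 and 15.5 CPM and the sgMed12 libraries 15.3, 12.2 and 7.66 CPM. Both were below sgCbfb (log2 fold changes -0.95 and -1.31, limma adjusted P = 0.0056 and 0.00038) and neither differed from sgControl past the test (limma adjusted P = 0.3 and 0.88). The difference of sgCTCF from sgCbfb had an adjusted P value of 0.054 without sgCbfb replicate 2.

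The summed level of 10 myeloid markers was higher with sgCbfb beside *Cdkn2a*, though not every marker rose. The sum of 10 markers per library was 58.4 to 95.02 CPM in sgControl and 500.2 to 591 CPM in sgCbfb LPs of experiment 1, 52.2 to 64.5 and 357 to 391.6 CPM in Phase 1 cells, and 64.3 to 72.3 and 723 to 815 CPM in LPs of experiment 2. *Mrc1* and *F13a1* made up most of it, while *Elane* and *Csf3r* were at 0 in all sgCbfb libraries and at most 0.705 CPM with sgControl. In Phase 1 cells the means of *Cd68* (8.33 to 3.52 CPM), *Itgam* (26.1 to 22.2 CPM) and *Lyz2* (0.45 to 0.216 CPM) were lower with sgCbfb. Those of *Mrc1*, *F13a1*, *Fcgr3*, *Mpo* and *Csf1r* were higher there. With sgCTCF and sgMed12 the sum was 85.4 to 130 CPM. In bulk RNA more cells of a type and more RNA per cell cannot be told apart, and the part of myeloid cells in the *Cdkn2a* values was not tested.

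*Cdkn2a* is ENSMUSG00000044303, chromosome 4, 89274471 to 89294653, minus strand. Its 2 annotated transcripts start at separate first exons (89281986 to 89282192 and 89294334 to 89294653) and have overlapping last exons (89274471 to 89274774 and 89274541 to 89274774). The deposited value is 1 per gene and does not separate the INK4a and ARF transcripts, so both promoters are printed. Each sequence is from RefSeq (GRCm38.p6), runs from 250 bases before to 50 bases after the start, 5′ to 3′ on the minus strand, and has in capitals the letters TTTNNCGC (N is any base), an E2F-type motif that 5.17% of 32851 mouse promoters hold on either strand.
Cdkn2a, downstream start, chr4:89282143-89282442: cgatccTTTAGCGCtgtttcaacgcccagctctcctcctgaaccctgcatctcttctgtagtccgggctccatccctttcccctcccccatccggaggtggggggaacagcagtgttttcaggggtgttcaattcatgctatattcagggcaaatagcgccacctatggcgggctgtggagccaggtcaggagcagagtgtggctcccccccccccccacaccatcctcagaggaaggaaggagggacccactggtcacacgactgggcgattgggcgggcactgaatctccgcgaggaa
Cdkn2a, upstream start, chr4:89294570-89294869: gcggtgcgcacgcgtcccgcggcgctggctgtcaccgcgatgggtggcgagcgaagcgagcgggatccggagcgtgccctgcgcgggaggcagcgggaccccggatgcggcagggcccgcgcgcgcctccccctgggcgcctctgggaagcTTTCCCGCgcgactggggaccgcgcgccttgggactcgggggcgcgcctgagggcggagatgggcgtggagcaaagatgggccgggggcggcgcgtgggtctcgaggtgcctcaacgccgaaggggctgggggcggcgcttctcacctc
Each holds the motif in 1 place. Neither holds TGTGGT, the RUNX core, on either strand.

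*Cdkn2d*, which encodes the INK4 protein p19 (ENSMUSG00000096472, chromosome 9, 21288410 to 21291407, minus strand), fell with sgCbfb and with sgMed12 in experiment 2. It had 46.7, 40.5 and 38.2 CPM with sgControl, 24.4, 23.9 and 23.7 CPM with sgCbfb and 15.8, 30.8 and 23.6 CPM with sgMed12. Neither the sgCbfb nor the sgMed12 libraries overlapped the sgControl libraries. The log2 fold changes were -0.77 with sgCbfb (standard error 0.19, limma adjusted P = 0.0052) and -0.85 with sgMed12 (standard error 0.19, limma adjusted P = 0.0093), and sgMed12 and sgCbfb did not differ detectably (-0.08, 95% interval -0.47 to 0.30). With sgCTCF the libraries were at 50.4, 43.4 and 43.7 CPM, above sgCbfb and sgMed12 (limma adjusted P = 0.00068 and 0.00054). With only sgMed12 and sgControl in the fit the adjusted P value was 0.13, and it was 0.06 without sgMed12 replicate 1.

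The same fall was not seen in experiment 1. In LPs *Cdkn2d* had 44.3, 44.6 and 41.1 CPM with sgControl and 49.4, 28.1 and 24.3 CPM with sgCbfb, where sgCbfb replicate 1 was the highest of the 6 libraries (log2 fold change -0.41, 95% interval -1.02 to 0.20, limma adjusted P = 0.7). In Phase 1 cells it had 53.6, 44.5 and 22.0 CPM with sgControl, the lowest in replicate 3, and 57.1, 46.5 and 44.8 CPM with sgCbfb.

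The *Cdkn2d* promoter is shown because its gene fell with sgCbfb and sgMed12 but not with sgCTCF, and that of *Cdk4* because it is the only member promoter with the RUNX core. Promoters of 8 of the 10 members were in the RefSeq set used here, and not those of *Ccnd1* and *Ccnd2*. Capitals mark in *Cdkn2d* part of a CTCF-type motif, spelled CC, 3 of any base, AG, 2 of any base and GGC, which 8.61% of all promoters hold on either strand. In *Cdk4* they mark TGTGGT on the opposite strand, which reads ACCACA here and which 16.8% of all promoters hold on either strand. A match of letters is a description of the sequence and not of binding.
Cdkn2d, minus strand, chr9:21291160-21291459: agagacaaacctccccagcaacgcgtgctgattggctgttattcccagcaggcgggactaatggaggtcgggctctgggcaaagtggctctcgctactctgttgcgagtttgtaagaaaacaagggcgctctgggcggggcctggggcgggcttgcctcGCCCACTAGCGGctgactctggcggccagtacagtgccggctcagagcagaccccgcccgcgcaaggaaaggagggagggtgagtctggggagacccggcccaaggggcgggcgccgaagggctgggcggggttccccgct
Cdk4, plus strand, chr10:127063285-127063584: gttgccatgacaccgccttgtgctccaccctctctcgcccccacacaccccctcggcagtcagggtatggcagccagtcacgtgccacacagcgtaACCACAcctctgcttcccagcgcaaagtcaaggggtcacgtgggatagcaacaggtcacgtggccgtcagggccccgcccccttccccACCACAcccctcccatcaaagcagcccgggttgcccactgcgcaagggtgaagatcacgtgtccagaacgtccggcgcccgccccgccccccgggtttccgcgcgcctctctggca
The CTCF-type letters begin at position -91 from the *Cdkn2d* start, on the opposite strand. The RUNX core begins at positions -154 and -66 from the *Cdk4* start, in a gene that no sgCbfb comparison changed past the test.

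*Cdkn2c*, for the INK4 protein p18 (ENSMUSG00000028551, chromosome 4, 109660876 to 109667189, minus strand), passed the test in no comparison, nor did *Cdkn1b*, for p27 (ENSMUSG00000003031, chromosome 6, 134920401 to 134925513, plus strand). The group means of *Cdkn2c* were 11.7 to 15.3 CPM in experiment 1 and 13.8 to 18.3 CPM in experiment 2. A single library, sgCbfb LP replicate 1 of experiment 1, had 1.41 CPM (2 reads) beside 17.2 and 16.4 CPM in the other two. *Cdkn1b* had group means of 52.7 to 82.1 CPM over both experiments. It was 78.97 to 86.9 CPM in sgCbfb and 56.5 to 76.9 CPM in sgControl Phase 1 cells, without overlap and with a log2 fold change of 0.33 (95% interval -0.06 to 0.71, limma adjusted P = 0.38).

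The interaction of stage and sgCbfb was past the test for none of the 10 members with limma and none with edgeR, where 0.612% of all genes had a positive and 0.657% a negative interaction. At an unadjusted P value under 0.05 it was 3 members, *Ccnd1*, *Ccne1* and *Cdkn2a*. The share of all genes at that unadjusted threshold was not counted, so this number is not to be read against the shares above. *Ccnd1* is among them after passing the filter only through Phase 1 sgControl cells. Between the sgRNA pools of experiment 2, 2 members were higher and 2 lower with sgCTCF than with sgCbfb, where 11.5% and 10.9% of all genes were higher and lower. The higher members were *Ccnd1* and *Cdkn2d*, and the lower were *Cdk6* and *Cdkn2a*. With sgMed12 compared with sgCTCF, none was higher and 2 (*Cdk4* and *Cdkn2d*) were lower, where 8.09% and 11.9% of all genes were higher and lower. With sgMed12 compared with sgCbfb, 1 was higher (*Ccnd1*) and 1 lower (*Cdkn2a*), where 7.03% and 9.77% were. In both comparisons with sgCbfb, *Ccnd1* had passed the filter only through the sgCTCF and sgMed12 libraries, so its calls are not read against these shares.

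The sgMed12 values rest on which libraries are used. Replicates 1 and 3 were below all sgControl libraries for *Ccnd3* (373 and 412 CPM), *Cdk4* (158 and 175 CPM) and *Cdk6* (494 and 649 CPM), whereas replicate 2, which stood apart, had 551, 250 and 806 CPM, within the sgControl range for all of them. Without replicate 2, the members past the test went from 1 to 5, with *Ccnd3* (log2 fold change -0.58, limma adjusted P = 0.00029), *Cdk4* (-0.53, 0.00018), *Cdk6* (-0.51, 0.00051) and *Cdkn2d* lower and *Ccnd1* higher (1.64, 0.0081). The number of all genes past the test went from 952 to 2830 of 13177, so the rise was not particular to the members. Replicate 2 stood apart in these same data by lying near sgControl, so leaving it out favors larger differences. Only replicates 1 and 3 then remain, and the values without replicate 2 do not count as support. With mitochondrial genes and the abundant *CT010467.1* also left out of the library total, a setting chosen after the data were seen, the same 5 members passed, with log2 fold changes of -0.44 for *Ccnd3*, -0.39 for *Cdk4* and -0.37 for *Cdk6*. With that total and all 3 libraries, 534 genes were higher and 278 lower with sgMed12, in place of 333 and 619.

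**Figure D4:**
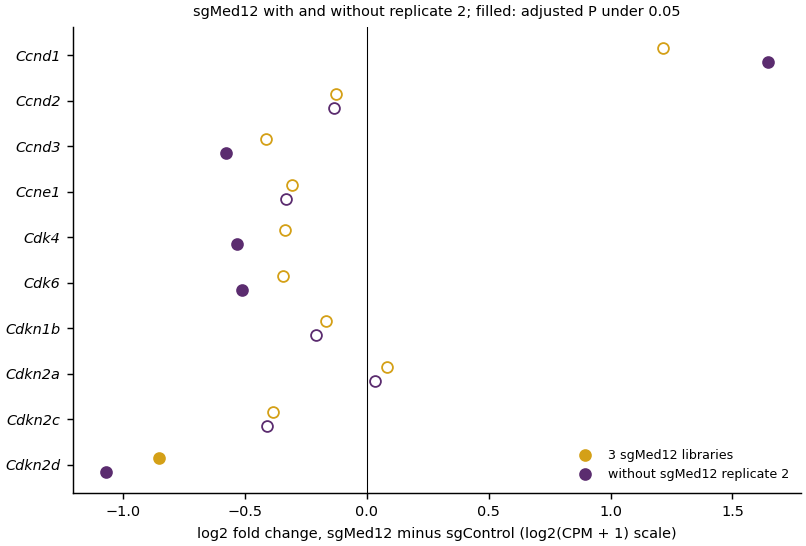
Log2 fold change of each of the 10 genes (rows) between sgMed12 and sgControl LPs, with all 3 sgMed12 libraries (yellow) and without sgMed12 replicate 2 (purple). Filled points had an adjusted P value under 0.05. Only *Cdkn2d* is filled with all libraries, and 5 genes are filled without replicate 2. Replicate 2 lay near sgControl in these same data, so leaving it out favors larger differences.

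Other genes of the G1/S pathway were counted from a list of 25. With sgCbfb, 2 of the 25 were higher in LPs of experiment 1, 4 in Phase 1 cells and 3 in LPs of experiment 2, and none was lower in any of these, where 1.76%, 3.37% and 6.91% of all genes were higher and 1.09%, 2.6% and 5.57% lower. The median log2 fold change of the list was 0.07, 0.14 and 0.01, beside 0.00, 0.06 and -0.01 for all genes. Those higher in all 3 comparisons, named after their values were seen, were *Cdkn1a*, for the inhibitor p21, and *Cdkn2b*, the INK4 neighbor of *Cdkn2a*. *Cdkn1a* went from 401 ± 29.2 to 564 ± 9.60 CPM, from 320 ± 41.6 to 470.0 ± 35.1 CPM and from 397 ± 40.8 to 619 ± 69.6 CPM (SD, n = 3). *Cdkn2b* stayed low, at 0 to 1.28 CPM in the sgControl libraries and 1.26 to 6.31 CPM in the sgCbfb libraries of both experiments. It passed the filter only through the sgCbfb libraries where it is high. Its calls, which are in all 3 counts above, do not count as support and are not read against those shares. *E2f7*, which encodes an E2F factor that represses, rose in Phase 1 cells from 16.2 ± 6.21 to 44.7 ± 2.82 CPM (log2 fold change 1.49, limma adjusted P = 0.0044). *Cdkn1c*, for the inhibitor p57, rose in LPs of experiment 2 from 0.791, 1.77 and 0.487 CPM to 11.6, 9.12 and 9.82 CPM (log2 fold change 2.52, limma adjusted P = 0.0001). In LPs of experiment 1 its means were 1.84 CPM with sgControl and 7.44 CPM with sgCbfb, and the difference did not pass the test (limma adjusted P = 0.27). *Cdkn1c* was lower with sgCTCF and sgMed12 than with sgCbfb (limma adjusted P = 0.0053 and 1.7e-05).

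Of the 25, sgCTCF raised 2 (*Cdkn1a* and *Rb1*) and lowered 3 (*E2f1*, *E2f8* and *Tfdp2*), and sgMed12 raised none and lowered 3 (*Cks1b*, *E2f2* and *Rbl2*), where 6.13% and 4.2% of all genes were higher and lower with sgCTCF and 2.53% and 4.7% with sgMed12. Notch stimulation lowered 1 (*E2f2*) in sgControl cells, where 3.23% of all genes were lower, and changed none in sgCbfb cells. These few genes are named after their values were seen.

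Of 24 genes of S phase and mitosis, sgCbfb changed none in LPs of experiment 1. In Phase 1 cells 1 was higher (*Cdc20*) and 1 lower (*Mcm3*), and in LPs of experiment 2, 2 were lower (*Mcm3* and *Mcm5*), where 3.37% and 2.6% of all genes were higher and lower in the former and 5.57% lower in the latter. sgCTCF lowered 8 and sgMed12 lowered 9 of the 24, and neither raised any, with median log2 fold changes of -0.33 and -0.35 beside -0.02 and -0.02 for all genes, of which 4.2% and 4.7% were lower and 6.13% and 2.53% higher. These comparisons share their sgControl libraries. The number of genes called with sgMed12 depended on the fit and the scaling. With only sgMed12 and sgControl in the fit, 24 of all genes passed in place of 952. In the main fit, 333 of all genes were higher and 619 lower. These became 387 and 455 with scaling by the median of ratios, and 534 and 278 once totals excluded *CT010467.1* and mitochondrial transcripts. Counts for this list under those settings are not given here. *Rrm2*, a subunit of ribonucleotide reductase named after its values were seen, had a mean of 141 CPM with sgControl, 77.6 CPM with sgCTCF and 87.6 CPM with sgMed12 (limma adjusted P = 0.0026 and 0.017). Notch stimulation lowered 4 (*Ccnb1*, *Ccnb2*, *Cdc20* and *Plk1*) and raised 1 (*Mcm3*) in sgControl cells, where 3.23% and 3.26% of all genes were lower and higher, and changed none in sgCbfb cells. *Cdc20*, an activator of the anaphase-promoting complex, had 207, 191 and 200 CPM in sgControl LPs and 136, 105 and 52.1 CPM in sgControl Phase 1 cells, a log2 fold change of -1.13 (standard error 0.22, limma adjusted P = 0.0021). The lowest of these was Phase 1 sgControl replicate 3.

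For the 3 members past the test in at least 2 of the 5 comparisons with sgControl, the genes with the most similar levels were sought among 8622 genes over all 24 libraries, centered within each experiment. For *Ccnd2* these were *Smim3*, *Uhrf1* and *Dnajc2* (Pearson r 0.93, 0.90 and 0.90). *Tpst1*, *Rgs14* and *Tnfrsf13b* came nearest to *Cdkn2a* (0.94, 0.89 and 0.88), and *Tmem123*, *Fbxo45* and *Atp6v1g1* to *Cdkn2d* (0.87, 0.85 and 0.84). The values describe these libraries, in which groups of 3 share their sgRNA and stage, and were not tested.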

How the data were processed

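QuantSeq 3′ mRNA libraries from 8 groups of sorted Cas9-LP cells were analysed, 3 per group, grouped by their titles. Per the labels and the study, the authors used fastp and STAR with the mm10 genome, and they deposited 1 value per gene and library, scaled to a total of 1000000. The files name these TPM, but the deposited values are CPM, since 100% were whole multiples of 1 read per library (within 0.1), so that whole reads were recovered. The authors' mean column was not used. A last line without an identifier, with at most 7.34e-05% of a library, was left out. The counter and its strand setting were not given in the sources used here. The median library had 1553496 reads on genes in experiment 1 and 3658892 in experiment 2.

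Each table was tested separately, since the experiments were scaled apart. A gene was tested if 3 or more libraries of the experiment had 1 CPM or more. The test was limma 3.58.1 (run in R 4.3.3) on log2(CPM + 1), which took the 4 groups of an experiment together, with a variance trend and Benjamini-Hochberg adjustment. This scale understates changes of low genes. P values are two-sided. Exact permutation of 3 against 3 libraries cannot go below 0.1 and was not used. The 11 comparisons were those of sgRNAs within a stage, of stages, and their interaction. Other settings were pseudocounts of 0.1 and 5, no filter, genes above 10 CPM on average in a group, scaling by the median of ratios, totals without mitochondrial genes and *CT010467.1*, edgeR 4.0.16 (quasi-likelihood test, TMM) on recovered reads, only the groups compared, the replicate number as a block, and each library left out. The fit was also run on simulated reads, in which the changed genes were above 10 CPM and no library stood apart. That run does not bear on low genes or on libraries that stand apart.

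All members are named. Among the 2 pathway lists, the rule named up to 4 genes per list and comparison that passed the study's thresholds (adjusted P under 0.05, absolute log2 ratio over 1, mean over 10 CPM), which gave *E2f7*, *Cdkn1c* and *Cdc20*. Other genes of these lists were named after their values were seen. Replicate numbers were checked for pairing by correlating the deviations of same-numbered libraries from their group means over the 5000 most abundant genes. All 3 pairs were over 0.1 for sgCTCF with sgControl (r 0.105 to 0.144) and for sgCTCF with sgCbfb (0.151 to 0.179), and not for the groups of the other comparisons. The labels name no shared batch or day. The members, lists, markers and rules were chosen with earlier results of these data known. Annotation was GENCODE M21, which held 55227 of 55487 identifiers. Plots were drawn with matplotlib 3.10.9.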

Additional observations from a re-analysis of the deposited data

How the results depend on the processing

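Of 969 values of single members under settings other than leaving out a library, 944 kept both their direction, where called, and their side of the threshold, 19 lost and 6 gained a call, and none that was called changed sign. Of 1320 with 1 library left out, the same held for 1271, while 32 lost and 17 gained a call. With only the 2 groups compared in the fit, the members past the test were 1 for sgCbfb in Phase 1 cells, 1 for Notch in sgControl cells, 0 for sgMed12 against sgControl and 1 for sgMed12 against sgCTCF. For sgCTCF against sgControl they were 1 with a pseudocount of 0.1, 0 without the filter and 1 with genes over 10 CPM alone, where *Ccnd1* was not tested. For sgMed12 against sgCTCF they were 1 with a pseudocount of 0.1, without the filter, without mitochondrial genes and *CT010467.1* in the total, and with edgeR, and for sgMed12 against sgCbfb 1 with genes over 10 CPM alone. The cause was not tested where it does not follow from the setting.

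When single libraries were omitted, the members past the test ranged from 2 to 3 for sgCbfb in Phase 1 cells, 2 to 3 for Notch in sgControl cells, 2 to 3 for sgCbfb in LPs of experiment 2, 0 to 2 for sgCTCF and 0 to 5 for sgMed12 against sgControl. They ranged from 3 to 4 for sgCTCF against sgCbfb, 1 to 3 for sgMed12 against sgCTCF and 2 to 6 for sgMed12 against sgCbfb, and stayed at 1, 1 and 0 for sgCbfb in LPs of experiment 1, Notch in sgCbfb cells and the interaction. Without sgMed12 replicate 2 and without mitochondrial genes and *CT010467.1* in the total, added after the data were seen, they were 5 for sgMed12 against sgControl and 6 against sgCbfb. The number of all genes past the test in that setting is not given here. Leaving out replicate 2 alone put 2830 and 3437 of 13177 genes past it, so these counts are not particular to the members.

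Same-numbered libraries deviated together, with every r over 0.1, for sgCTCF with sgControl and with sgCbfb. In the other comparisons not every r was over 0.1 (r from -0.06 to 0.23 in experiment 1 and from -0.14 to 0.34 in experiment 2). Among these, sgControl with sgCbfb in experiment 2 had 0.06, 0.34 and 0.22, so the rule does not show that these libraries are unpaired. With the replicate number as a block, the members past the test were 3 in place of 4 for sgCTCF against sgCbfb, where *Cdk6* had an adjusted P value of 0.05, and as many as before in the other 10 comparisons. Over all genes, and with all libraries kept, the number past the test moved by over 1.5 times with only the 2 groups compared (480 in place of 790 for sgCbfb in Phase 1 cells, 401 in place of 858 for Notch in sgControl cells, 24 in place of 952 for sgMed12 against sgControl and 1356 in place of 2215 against sgCbfb), and to 325 without the filter for sgMed12 against sgControl. With single libraries omitted, that number moved by over 1.5 times in 9 of the 11 comparisons. It reached 245 (without sgCbfb LP replicate 1) and 636 (without Phase 1 sgControl replicate 3) in place of 377 for sgCbfb in LPs of experiment 1, and 186 (without sgCbfb LP replicate 1 or Phase 1 sgCbfb replicate 2) and 571 (without Phase 1 sgControl replicate 3) in place of 297 for Notch in sgCbfb cells. It fell to 515 without Phase 1 sgCbfb replicate 2 for sgCbfb in Phase 1 cells, 546 without sgControl LP replicate 2 for Notch in sgControl cells, 103 in place of 168 without Phase 1 sgCbfb replicate 2 for the interaction, and 807 in place of 1361 without sgCTCF replicate 2 for sgCTCF. Without sgMed12 replicate 2 it reached 2830 for sgMed12 against sgControl, 4043 in place of 2635 against sgCTCF and 3437 against sgCbfb, and without sgMed12 replicate 3 it was 187 and 1652 for the former pair. Depth limits *Ccnd1*, *Cdkn2b* and, in experiment 1, *Cdkn2a* and *Cdkn2c*, for which 1 read is 0.574 to 0.734 CPM.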
